A study of Mus musculus with 16 samples.

Results

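Hepatic stellate cell genes, 10 in number, were followed in 16 mouse liver RNA-seq libraries: Acta2, Des, Lrat, Reln, Pdgfra, Pdgfrb, Hgf, Dcn, Cygb and Lox. They were taken by name, with earlier results of these data known, as 10 of the 24411 genes with a count. Setting them against all tested genes is therefore not independent of these data. All 10 had at least 1 read in every library and passed the filter on low counts that left 12901 genes for testing. Diet was crossed with treatment, at 4 libraries per group. EtOH+MBV livers came from mice on an ethanol diet with a chronic and a binge phase, after the NIAAA protocol, that also received matrix-bound nanovesicles (MBV), vesicles embedded in extracellular matrix. EtOH livers came from the same diet with vehicle, PF+MBV livers from pair-fed mice given MBV, and PF livers from pair-fed mice given vehicle. No strain, sex, age or MBV dose was stated in the sources. The labels number the repeats of a group but do not state that each is a separate mouse, so a p-value here measures the spread between these libraries.

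Hepatic stellate cells lie between the sinusoidal endothelium and the hepatocytes. In a healthy liver they store vitamin A as retinyl esters and secrete hepatocyte growth factor, and on injury they can take on a contractile, matrix-producing myofibroblast state, in which alpha smooth muscle actin rises and the retinoid stores are lost. They are a minor cell population, so in whole-liver RNA their transcripts are diluted by those of hepatocytes. In such bulk samples fewer cells of a type and less RNA per cell cannot be told apart.

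The libraries held 15271344 to 20493181 counts in genes and 15021 to 15856 detected genes. Summed over the 10 genes, the level ran from 202 to 296 CPM in EtOH+MBV, 242 to 348 CPM in EtOH, 237 to 272 CPM in PF+MBV and 226 to 241 CPM in PF livers, where CPM is counts-per-million with library totals scaled by TMM (trimmed mean of M-values). Hepatocyte markers summed to 97400 to 182000 CPM over the same libraries. A pair of libraries stood apart from their groups. On the first principal component, with 49.8% of the variance, EtOH+MBV library 1 lay at -0.3 while the other EtOH+MBV libraries lay between 41.2 and 49.6. EtOH library 1 stood apart on the second component, with 15.6% of the variance, and it also held 715 CPM of Kupffer cell markers and 164 CPM of monocyte markers. Over EtOH libraries 2 to 4 these sums were 266 to 345 CPM and 52.8 to 65.5 CPM. Calls on the 10 genes that change without either library are given both ways.

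To set genes beside each other, levels were divided by the joint length of all exons of a gene in GENCODE vM21. That length can differ from the exons counted and from the transcripts made in liver, so the order between genes is approximate. Per kilobase of exon, Dcn led in all 4 groups, with 20.4 ± 3.47 CPM per kb in EtOH+MBV, 25.0 ± 4.72 in EtOH, 21.5 ± 1.07 in PF+MBV and 19.5 ± 1.83 in PF livers (SD, n = 4 each). Dcn did not overlap the next gene in any group. Lox was last throughout, at 0.112 ± 0.0923 CPM per kb in EtOH+MBV, 0.204 ± 0.153 in EtOH, 0.119 ± 0.0252 in PF+MBV and 0.0897 ± 0.0898 in PF livers (SD, n = 4 each). In PF livers the order between them was Cygb, Lrat, Reln, Pdgfrb, Hgf, Acta2, Des and Pdgfra. Their mean levels there ran from 3.69 CPM per kb for Cygb to 0.847 for Pdgfra, and Cygb, Lrat and Reln formed one run of overlapping neighbours, as did Hgf, Acta2, Des and Pdgfra. The order in EtOH livers was Cygb, Lrat, Hgf, Pdgfrb, Reln, Pdgfra, Des and Acta2. Hgf held rank 4 there, at 3.14 ± 0.374 CPM per kb, and rank 6 in PF livers, at 1.07 ± 0.127, whereas Reln held rank 6 in EtOH livers, at 1.81 ± 0.451, and rank 4 in PF livers, at 2.71 ± 0.217 (SD, n = 4 each).

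**Figure D1:**
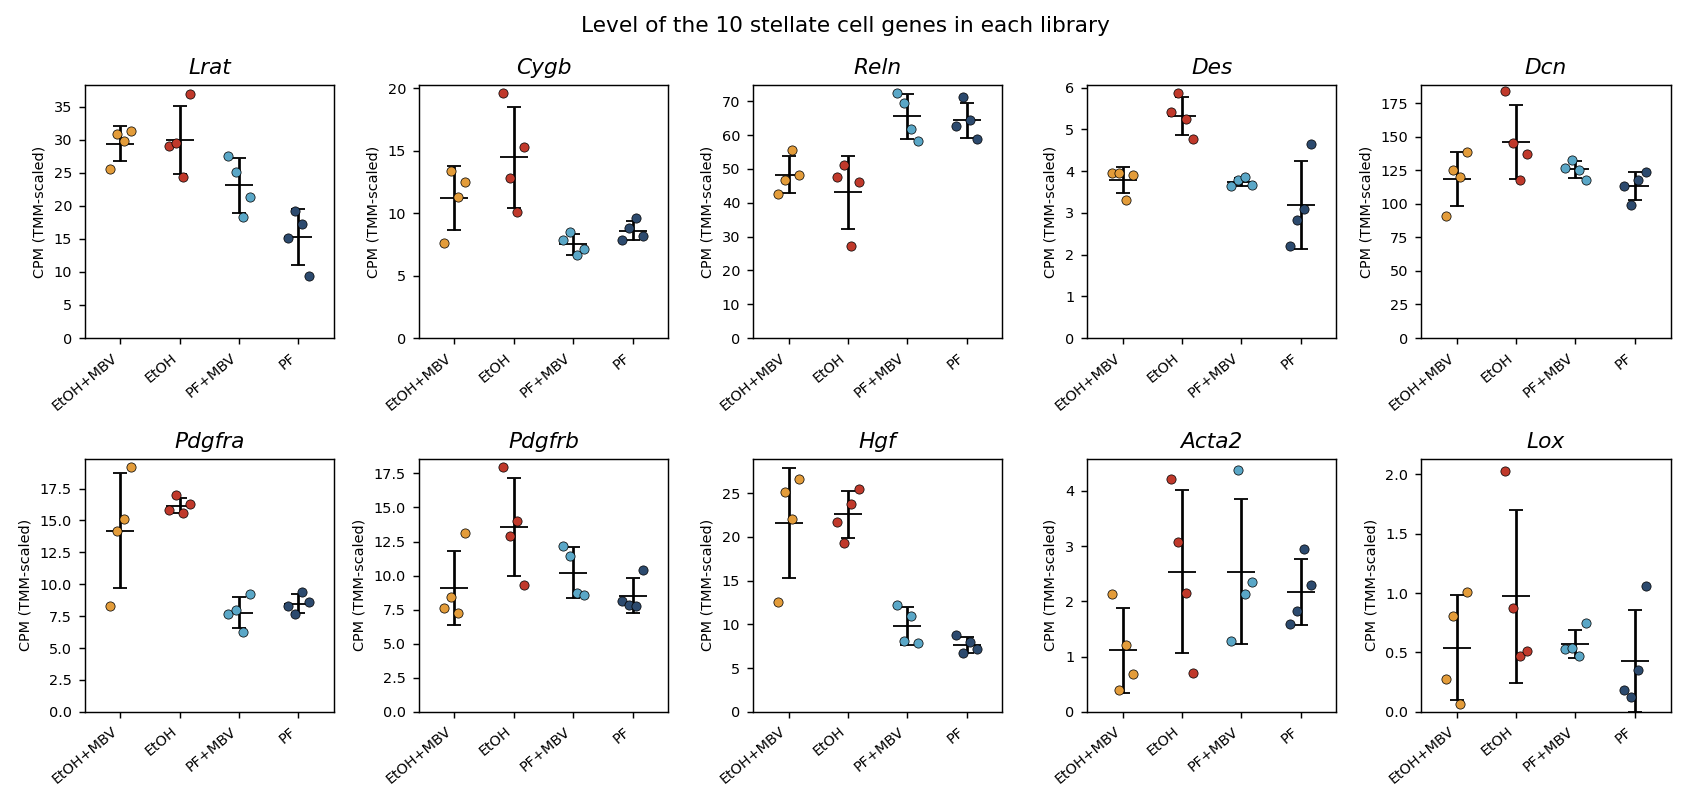
Library-scaled CPM of the 10 stellate cell genes, 1 panel per gene and a linear axis from 0, with 1 point per library and the mean ± SD of each group (n = 4). Hgf and Pdgfra lie higher in the EtOH than in the PF libraries with no overlap, Reln lies lower with no overlap, and Acta2 spans 0.709 to 4.21 CPM within the EtOH group.

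Ethanol with vehicle against pair-feeding asked what the diet alone did to these genes. Of the 10 genes 7 were higher and 1 was lower in EtOH livers (edgeR quasi-likelihood test, Benjamini-Hochberg adjusted p under 0.05 over all genes tested). Hgf, the growth factor for hepatocytes, was 2.93-fold higher, Lrat, which esterifies retinol for storage, 1.96-fold higher, and Pdgfra, a receptor for platelet-derived growth factor, 1.90-fold higher. Reln, which encodes the secreted glycoprotein reelin, was 1.49-fold lower. Acta2 and Lox did not pass. The background was wide, since 39.8% of all tested genes were called, 20.4% as higher and 19.5% as lower, and the median log2 fold change was 0.75 over the 10 genes and 0.01 over all tested genes. In 5 genes every EtOH library lay above every PF library, and in 1 every EtOH library lay below, against 15.9% and 16.3% of all tested genes.

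**Figure D2:**
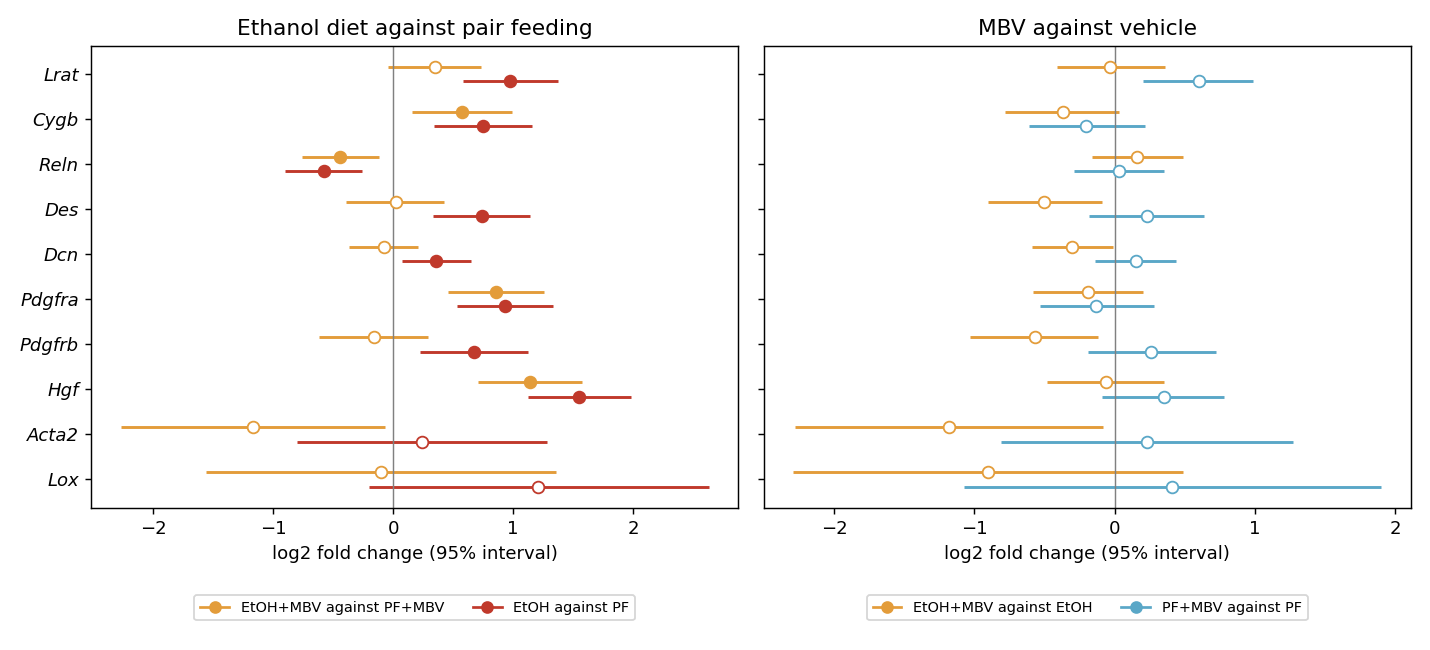
Log2 fold changes of the 10 genes for ethanol against pair-feeding (left) and MBV against vehicle (right), with 95% intervals as whiskers, filled points for genes called at an adjusted p under 0.05 and open points for the rest. Filled points appear for 4 genes in EtOH+MBV against PF+MBV and for 8 in EtOH against PF, and for none in the comparisons of MBV with vehicle.

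The retinoid and quiescent-cell genes did not move as one. Lrat (chromosome 3:82892579-82903973, minus strand, GRCm38) was at 29.1, 29.5, 24.4 and 36.9 CPM in EtOH livers, against 15.1, 19.2, 17.3 and 9.44 CPM in PF livers. Each EtOH library was above each PF library, and the log2 fold change was 0.97 ± 0.19 (SE, edgeR adjusted p = 0.000762). Cygb, which encodes cytoglobin, a haem protein that stellate cells use to handle oxygen and nitric oxide, was at 19.6, 12.8, 10.1 and 15.3 CPM in EtOH livers and 7.82, 8.83, 9.57 and 8.14 CPM in PF livers. These groups did not overlap either, although EtOH library 3 lay close to the highest PF library, and the log2 fold change was 0.75 ± 0.19 (SE, edgeR adjusted p = 0.00595). Exons of Cygb (chromosome 11:116645595-116654313) overlap those of Prcd on the other strand over 201 bases, and the counts do not use strand. Reln (chromosome 5:21884454-22344702) went the other way, at 47.7, 51.1, 27.3 and 46.1 CPM in EtOH livers against 62.8, 71.3, 64.5 and 59.0 CPM in PF livers. All EtOH libraries were below all PF libraries, with a log2 fold change of -0.58 ± 0.15 (SE, edgeR adjusted p = 0.00706), and library 3 held the lowest value. With no TMM scaling the Reln difference was -0.51 and missed the threshold (edgeR adjusted p = 0.054).

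Around Lrat, 7 of 22 tested genes of retinoid storage and metabolism were higher and 4 were lower in EtOH livers. Over all tested genes 20.4% were higher and 19.5% lower, and the median log2 fold change of the list was 0.07. Cyp26a1, the enzyme that clears retinoic acid, rose most clearly, to 128 ± 43.2 CPM in EtOH livers against 8.64 ± 3.6 CPM in PF livers (SD, n = 4 each), a log2 fold change of 3.88 ± 0.30 (SE, edgeR adjusted p = 4.82e-07). Bco1, which cleaves beta-carotene to retinal, was higher by 2.76 ± 0.37 and Stra6l, a transporter for retinol, by 1.27 ± 0.17 on the log2 scale (SE, edgeR adjusted p = 3.71e-05 and 3.43e-05). Dhrs3, which reduces retinal to retinol, fell by 0.90 ± 0.14 on the log2 scale (SE, edgeR adjusted p = 0.000152). Several of these are expressed in hepatocytes, so the list is not one of stellate cells alone.

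Both receptors for platelet-derived growth factor, a mitogen of stellate cells, were higher in EtOH livers. Pdgfra (chromosome 5:75152292-75198215, plus strand) was at 15.8, 17.0, 15.6 and 16.3 CPM in EtOH livers, against 8.31, 7.64, 9.42 and 8.57 CPM in PF livers. The EtOH libraries lay within 1.09-fold of each other and clear of the PF libraries, and the log2 fold change was 0.93 ± 0.19 (SE, edgeR adjusted p = 0.00117). Exons of Pdgfra overlap those of Gm42802 over 456 bases on the other strand. Pdgfrb (chromosome 18:61045150-61085061) was at 18, 12.9, 14.0 and 9.29 CPM in EtOH livers and 8.13, 7.83, 7.73 and 10.4 CPM in PF livers. Here the groups overlapped, since EtOH library 4 lay below PF library 4, and the log2 fold change was 0.67 ± 0.21 (SE, edgeR adjusted p = 0.0201). That call was lost without EtOH library 1 (0.50, edgeR adjusted p = 0.0704), without PF library 1 (0.64, 0.051) and without PF library 3 (0.63, 0.0544), and EtOH library 1 was also the library with the highest Kupffer cell and monocyte markers, whose part in this result was not tested.

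The TGF-beta pathway drives matrix production in stellate cells. Of 19 tested genes for platelet-derived growth factor ligands and this pathway, 7 were higher and 4 lower. The shares over all tested genes were 20.4% and 19.5%, and the list had a median log2 fold change of 0.27. Tgfb3, a TGF-beta ligand, reached 10.0 ± 3.29 CPM in EtOH livers against 1.24 ± 0.361 CPM in PF livers (SD, n = 4 each), and the log2 fold change was 3.02 ± 0.28 (SE, edgeR adjusted p = 1.80e-06). Skil, a repressor of Smad signalling that TGF-beta itself induces, was higher by 2.00 ± 0.28, and the receptor gene Tgfbr2 by 1.38 ± 0.13 on the log2 scale (SE, edgeR adjusted p = 5.95e-05 and 2.41e-06). Ltbp4, which holds latent TGF-beta in the matrix, fell by 0.62 ± 0.12 (log2, SE, edgeR adjusted p = 0.000667).

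Hgf (chromosome 5:16553495-16620152, plus strand) had the highest fold change of the 10. It was at 21.7, 19.3, 23.8 and 25.5 CPM in EtOH livers, against 8.80, 6.77, 8.03 and 7.14 CPM in PF livers. The lowest EtOH library was above 2 times the highest PF library, and the log2 fold change was 1.55 ± 0.20 (SE, edgeR adjusted p = 3.44e-05). In the GENCODE vM21 annotation its exons overlap those of Gm43489 over 484 bases on the same strand. Whether the annotation used for counting held Gm43489, so that reads in both were left out, was not checked. Among 13 tested genes for the receptor of hepatocyte growth factor, its activators and their inhibitors, 4 were higher and 3 lower. The shares over all tested genes were 20.4% and 19.5%, and the median log2 fold change of the list was -0.01. Plaur, the urokinase receptor, was higher by 3.24 ± 0.40 and Plat, tissue plasminogen activator, by 2.23 ± 0.46 on the log2 scale (SE, edgeR adjusted p = 1.73e-05 and 0.00126). Plau, urokinase itself, fell, with -1.95 ± 0.40, as did Serpina5, an inhibitor of serine proteases, with -3.49 ± 0.80 (log2, SE, edgeR adjusted p = 0.00125 and 0.00287).

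The stretches just before the RefSeq start sites of Hgf, Lrat and Pdgfra are shown because these 3 genes had the highest called rises with the diet. Whether they share a control was not tested. Windows were found for 6 of the 10 genes (RefSeq, GRCm38.p6), and each line gives the 250 bases 5′ of the start in transcript direction, at 5:16553245-16553494 (plus strand) for Hgf, 3:82903975-82904224 (minus strand) for Lrat and 5:75152001-75152250 (plus strand) for Pdgfra.
Hgf: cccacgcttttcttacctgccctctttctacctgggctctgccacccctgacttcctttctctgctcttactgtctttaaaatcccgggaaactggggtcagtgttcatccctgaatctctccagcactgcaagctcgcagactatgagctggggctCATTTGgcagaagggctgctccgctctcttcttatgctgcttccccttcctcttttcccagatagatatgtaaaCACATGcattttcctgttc
Lrat: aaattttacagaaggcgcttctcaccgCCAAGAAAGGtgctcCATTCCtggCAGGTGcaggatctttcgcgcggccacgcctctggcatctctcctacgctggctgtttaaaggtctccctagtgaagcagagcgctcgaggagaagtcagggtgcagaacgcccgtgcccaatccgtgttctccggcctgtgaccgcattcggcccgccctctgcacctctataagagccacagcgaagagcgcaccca
Pdgfra: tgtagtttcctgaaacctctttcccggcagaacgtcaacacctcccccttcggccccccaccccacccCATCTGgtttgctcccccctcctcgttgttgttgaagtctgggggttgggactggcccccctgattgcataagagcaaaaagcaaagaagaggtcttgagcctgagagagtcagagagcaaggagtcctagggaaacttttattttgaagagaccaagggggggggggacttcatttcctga
Capitals mark matches on either strand to the motifs searched. In Hgf these are 2 E boxes (CANNTG), a form that 72.3% of all 32851 windows of 300 bases hold at least once, and in Pdgfra 1 E box upstream of the start. Hgf has another RefSeq start, with its 250 upstream bases at 5:16553651-16553900. That window held no match to any motif searched, and its bases are not shown because 150 of them lie in annotated exons. Lrat holds, in order, a CArG box (the element read by serum response factor) with 1 change among its A or T positions, an MCAT element (CATTCC) and an E box. That relaxed CArG form was chosen after the sequences had been read, and 9.98% of windows hold it, against 1.63% for the strict form and 14.7% for CATTCC. No window of the 6 genes held a strict CArG box or TATAAA, which says only that these letters are not in these stretches.

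Of the matrix genes, Dcn (chromosome 10:97479609-97518143), which encodes the collagen-binding proteoglycan decorin, was at 184, 145, 118 and 137 CPM in EtOH livers and 113, 99.2, 118 and 124 CPM in PF livers. The groups overlapped, and the log2 fold change of 0.36 ± 0.14 passed narrowly (SE, edgeR adjusted p = 0.0449). This call was lost in 20 of 27 alternatives, among them leaving out EtOH library 1 (0.23, edgeR adjusted p = 0.154), EtOH 2 (0.37, 0.0682), EtOH 4 (0.39, 0.0527), PF 1 (0.35, 0.0933), PF 2 (0.30, 0.121) or PF 3 (0.38, 0.0673), and also leaving out EtOH+MBV 2 or 3 or any PF+MBV library (0.36 to 0.37, adjusted p between 0.0543 and 0.0593). Lox, the enzyme that crosslinks collagen and elastin (chromosome 18:52516067-52529867), rested on few reads, with 42, 15, 7 and 8 counts in EtOH livers and 3, 2, 7 and 17 counts in PF livers. The highest value of each group came from a single library, and the log2 fold change was 1.21 ± 0.67 (SE, edgeR adjusted p = 0.161). Without PF library 4 it was 2.10 and passed (edgeR adjusted p = 0.0342), and without EtOH library 1 it was 0.55.

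Among the other small leucine-rich proteoglycans, none of 8 tested was higher and 3 were lower in EtOH livers. Over all tested genes 20.4% were higher and 19.5% lower, and the median log2 fold change of this list was -0.33. Omd (osteomodulin) was at -3.94 ± 0.38, Podn (podocan) at -1.43 ± 0.25 and Prelp at -0.41 ± 0.12 on the log2 scale (SE, edgeR adjusted p = 2.64e-06, 0.000418 and 0.0145). Of 14 tested lysyl oxidases and elastic fibre genes, 7 were higher and 1 lower, with a median of 0.41. Loxl4 and Loxl2, relatives of Lox, were higher by 1.68 ± 0.44 and 1.28 ± 0.26, and Plod1, a collagen lysyl hydroxylase, by 0.53 ± 0.10 on the log2 scale (SE, edgeR adjusted p = 0.00665, 0.00109 and 0.000496).

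Of the cytoskeletal markers, Des was called and Acta2 was not. Des (chromosome 1:75360329-75368579), which encodes the intermediate filament desmin, was at 5.42, 5.88, 5.24 and 4.77 CPM in EtOH livers, against 2.20, 2.82, 3.09 and 4.66 CPM in PF livers. No EtOH library was below a PF library, although PF library 4 came close, and the log2 fold change was 0.74 ± 0.19 (SE, edgeR adjusted p = 0.00623). Its exons overlap those of Gm15179 over 220 bases on the other strand. Acta2 (chromosome 19:34241090-34255590), alpha smooth muscle actin and the usual marker of the myofibroblast state, was at 4.21, 3.08, 2.15 and 0.709 CPM in EtOH livers and 1.59, 1.82, 2.94 and 2.30 CPM in PF livers. The EtOH libraries spanned 5.94-fold and enclosed the PF libraries, from 87 counts in library 1 to 11 in library 4. The log2 fold change was 0.24 ± 0.49 with a 95% interval from -0.80 to 1.28 (edgeR adjusted p = 0.726), so neither a 2-fold rise nor no difference was outside what this depth and spread allow. Coding sequence that Acta2 shares with other actin genes gives reads that map to several places, and those were counted for no gene.

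For Acta2, the RefSeq window lies largely inside the annotated first exon, so 3 stretches of 30 bases are shown, because serum response factor and its CArG boxes are the best known control of this gene. They lie on the minus strand of chromosome 19 (GRCm38.p6), at 34255438-34255467, 34255388-34255417 and 34255502-34255531. Each is named by the first base of its match, counted from the RefSeq start.
Acta2 at -84: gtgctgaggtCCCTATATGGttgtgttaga
Acta2 at -34: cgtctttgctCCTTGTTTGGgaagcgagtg
Acta2 at -146: gagcagaacagaGGAATGcagtggaagaga
Capitals mark CArG boxes with 1 change among their A or T positions at -84 and -34, and at -146 the reverse complement of the MCAT letters CATTCC. A match is a description of letters and says nothing of binding in these livers.

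A list for serum response factor, its coactivator MRTF and their targets, which are cytoskeletal and immediate early genes, had 19 tested genes. They were called higher in 14 cases and lower in none, with a median log2 fold change of 0.95. Over all tested genes 20.4% were called higher and 19.5% lower. Egr1, an immediate early gene, was higher by 5.34 ± 0.42, and the cytoplasmic actins Actg1 and Actb by 3.16 ± 0.27 and 1.36 ± 0.14 on the log2 scale (SE, edgeR adjusted p = 6.44e-07, 1.04e-06 and 4.62e-06). Tpm4, a tropomyosin, was higher by 1.75 ± 0.18 (log2, SE, edgeR adjusted p = 4.06e-06). These genes are expressed in most liver cells. Vascular smooth muscle also expresses Acta2 and Des, and its markers summed to 70.7 to 111 CPM in EtOH livers and 120 to 168 CPM in PF livers, with 1 of 5 higher and 1 lower, and their part in the Des result was not tested.

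**Figure D3:**
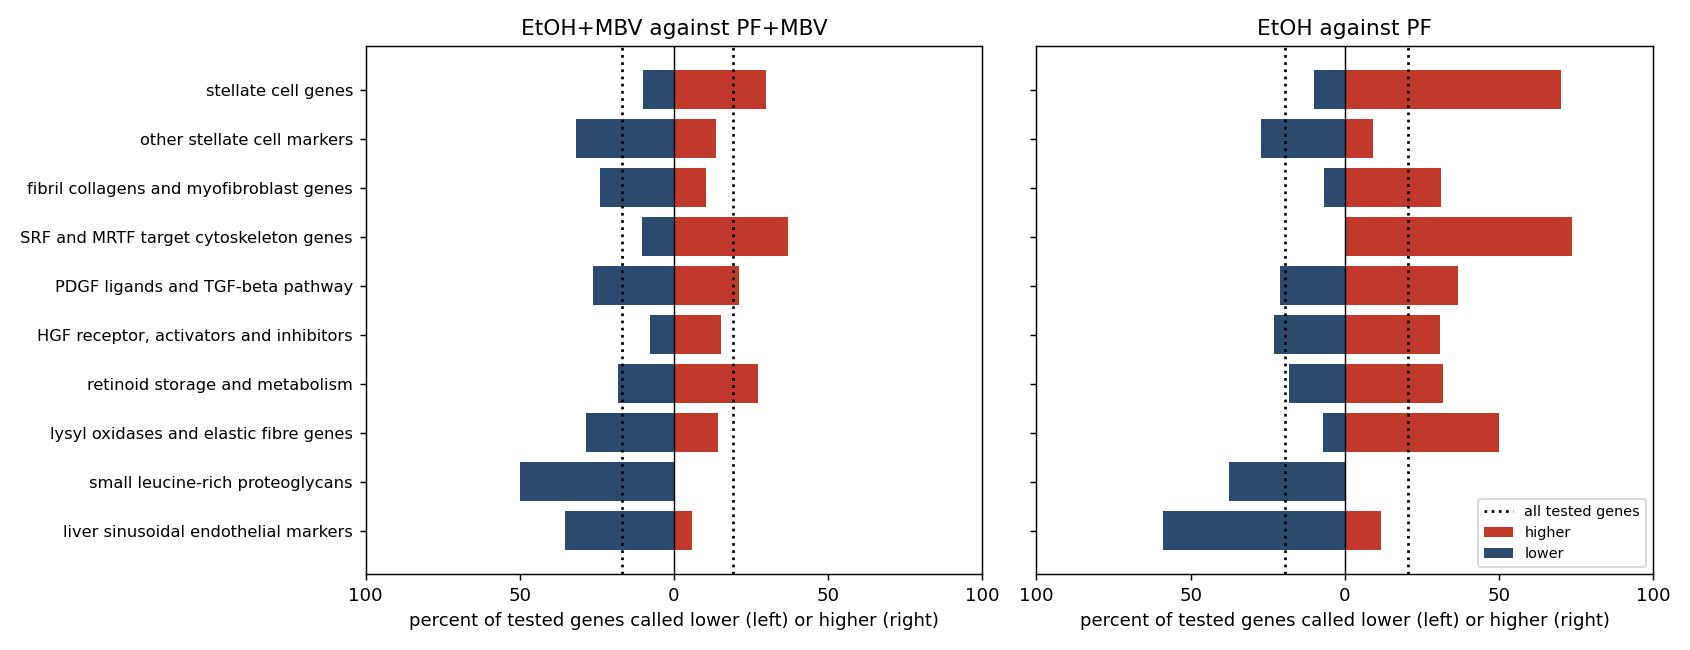
Percent of the tested genes of each list called higher (right of 0) or lower (left of 0) in EtOH+MBV against PF+MBV and in EtOH against PF, with dotted lines at the percent called among all tested genes. In EtOH against PF the serum response factor list has 14 of 19 genes higher and the sinusoidal endothelial markers 10 of 17 lower.

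Of 22 other stellate cell markers tested, 2 were higher and 6 lower in EtOH livers, against 20.4% and 19.5% of all tested genes. The share called higher was thus below the background and the share called lower above it. Their median log2 fold change was -0.17, against 0.75 for the 10 genes. Colec10, a liver collectin, was at -1.56 ± 0.16, Fgfr2, a fibroblast growth factor receptor, at -1.36 ± 0.24 and Angptl6, a secreted angiopoietin-like factor, at -1.13 ± 0.18, while the endothelin receptor Ednrb was higher by 1.14 ± 0.17 (log2, SE, edgeR adjusted p = 4.06e-06, 0.000394, 0.000157 and 8.19e-05). Of 29 fibril collagen and myofibroblast genes tested, 9 were higher and 2 lower, with a median of 0.49. Mmp14, a membrane-bound collagenase, was higher by 0.94 ± 0.12 and Sparc, a collagen-binding matrix protein, by 0.70 ± 0.14 on the log2 scale (SE, edgeR adjusted p = 2.29e-05 and 0.000993).

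Markers of other cells were called with the diet too, and their counts are to be read against the 20.4% of all tested genes called higher and the 19.5% called lower. Sinusoidal endothelial markers summed to 502 to 661 CPM in EtOH livers and 689 to 807 CPM in PF livers, with 10 of 17 lower and 2 higher. Portal fibroblast markers, the other collagen-producing cells of the liver, summed to 21.8 to 48.6 CPM in EtOH livers and 19.1 to 24.5 CPM in PF livers, with the highest value in EtOH library 1, and 1 of 8 was higher. Monocyte and recruited macrophage markers were called higher in 4 of 10 cases and lower in 2, Kupffer cell markers in 1 and 2 of 12, and mesothelial markers in none of 7. Hepatocyte markers were higher in 3 and lower in 2 of 14, cholangiocyte markers in 1 and 1 of 7 and adipocyte markers in 0 and 2 of 5. Lymphocyte markers were lower in 1 of 2, and no neutrophil marker of 6 was called. The part of these cells in the results on the 10 genes was not tested.

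MBV in ethanol-fed mice was the treatment comparison of the design, and it called none of the 10 genes in the edgeR test, in DESeq2 or in limma voom. Across all tested genes 2.69% were called, 1.24% as higher and 1.45% as lower. The estimates leaned downward, with 9 of 10 log2 fold changes below 0 and a median of -0.34, where 49.1% of all tested genes were below 0 with a median of 0.01. The lean was smaller without the libraries that stood apart. Without EtOH library 1, 9 of 10 were below 0 with a median of -0.19, without EtOH+MBV library 1, 7 of 10 with a median of -0.21, and without both, 7 of 10 with a median of -0.03. At an unadjusted p under 0.05 stood 4 of the 10 genes, namely Acta2, Des, Pdgfrb and Dcn, against 21.1% of all tested genes. The EtOH libraries are the same as in the diet comparison, so the estimates of both are not independent.

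Of these 4, Des alone had groups that did not overlap. It was at 3.95, 3.95, 3.31 and 3.90 CPM in EtOH+MBV livers and at 5.42, 5.88, 5.24 and 4.77 CPM in EtOH livers. Every EtOH+MBV library was below every EtOH library, which held in this direction for 3.55% of all tested genes and in the other for 4.05%, and the log2 fold change was -0.50 ± 0.19 (SE, edgeR adjusted p = 0.146). Pdgfrb was at 7.62, 8.44, 7.26 and 13.1 CPM in EtOH+MBV livers, against 18, 12.9, 14.0 and 9.29 CPM in EtOH livers. Library 4 crossed over in both groups, and the log2 fold change was -0.57 ± 0.21 (SE, edgeR adjusted p = 0.137). Without EtOH library 4 it was -0.71 and passed (edgeR adjusted p = 0.0433), whereas without EtOH library 1 it was -0.40.

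Acta2 was at 2.14, 0.402, 1.21 and 0.691 CPM in EtOH+MBV livers and at 4.21, 3.08, 2.15 and 0.709 CPM in EtOH livers. The EtOH+MBV libraries rested on 39, 6, 19 and 11 counts, the groups overlapped, and the log2 fold change was -1.18 ± 0.52 with a 95% interval from -2.28 to -0.08 (edgeR adjusted p = 0.203). Dcn was at 91.0, 125, 120 and 139 CPM in EtOH+MBV livers, with its lowest value in library 1, and at 184, 145, 118 and 137 CPM in EtOH livers, with its highest value in library 1. The log2 fold change was -0.30 ± 0.14 (SE, edgeR adjusted p = 0.225) and -0.16 without EtOH library 1.

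Hgf, Lrat and Pdgfra, the genes with the highest called rises with ethanol, had estimates nearer 0 under MBV, with intervals that allow moderate changes. Hgf was at 12.6, 25.1, 22.1 and 26.6 CPM in EtOH+MBV livers, and Lrat at 25.6, 30.9, 29.8 and 31.3 CPM. Their log2 fold changes against EtOH livers were -0.06 for Hgf and -0.03 for Lrat. Pdgfra was at 8.28, 14.2, 15.1 and 19.2 CPM in EtOH+MBV livers, with a log2 fold change of -0.19, or 0 without EtOH+MBV library 1. In Hgf, Lrat and Pdgfra library 1 was the lowest EtOH+MBV library, and that library also stood apart on the first principal component. Cygb, at 7.57, 13.4, 11.3 and 12.5 CPM in EtOH+MBV livers, had a log2 fold change of -0.37, or -0.18 without EtOH library 1, and Reln, at 42.5, 46.7, 55.7 and 48.2 CPM, one of 0.16. Lox had 5, 12, 1 and 16 counts in EtOH+MBV livers and a log2 fold change of -0.90, which depended on single libraries and was -0.23 without EtOH library 1.

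In the gene lists few calls were made for MBV in ethanol-fed mice, where 1.24% of all tested genes were higher and 1.45% lower. Of 29 collagen and myofibroblast genes 2 were lower, with a median log2 fold change of -0.65. These were Cyr61, a matricellular protein, at -2.0 ± 0.48, and Col5a1, a collagen chain, at -0.99 ± 0.25 (SE, edgeR adjusted p = 0.0377 and 0.0468). The summed level of this list did not go down with its median, at 3050 to 5570 CPM in EtOH+MBV livers and 2460 to 3440 CPM in EtOH livers. Of 19 genes of the serum response factor list 3 were lower, with a median of -0.48. Cyr61 is one of them too, since these lists share 6 tested genes, and another was Tpm4 at -0.79 ± 0.17 (SE, edgeR adjusted p = 0.0315). Tgfb3 was lower, at -1.46 ± 0.25, and Serpina5 higher, at 3.57 ± 0.80, on the log2 scale (SE, edgeR adjusted p = 0.018 and 0.0315). Of 17 sinusoidal endothelial markers 1 was higher. The monocyte list had 1 of 10 genes lower, with sums of 44.4 to 63.6 CPM in EtOH+MBV livers and 52.8 to 164 CPM in EtOH livers.

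**Figure D4:**
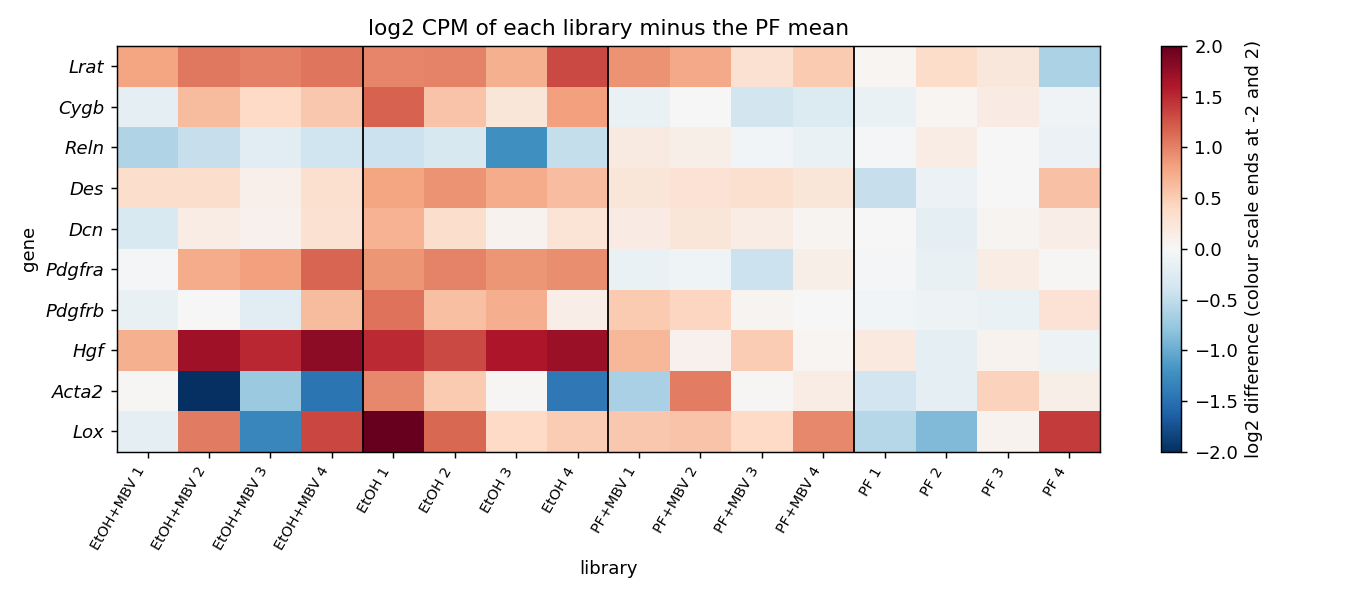
Log2 CPM of each of the 10 genes in each of the 16 libraries, shown as the difference from the gene's mean in PF livers, on a colour scale that ends at -2 and 2. EtOH+MBV library 1 has 2 of the 10 genes above and 4 below all PF libraries, and EtOH library 1 has 9 above all of them. The matching share over all tested genes was not counted.

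The libraries differed in how many of the 10 genes they carried upward. In EtOH+MBV libraries 1 to 4, 2, 5, 4 and 6 of the 10 genes were above all PF libraries, and the median difference from the PF mean was -0.09, 0.49, 0.10 and 0.59 on the log2 scale. In EtOH libraries 1 to 4 it was 9, 8, 6 and 6 genes, with medians of 0.97, 0.75, 0.55 and 0.56. The PF+MBV libraries had medians from 0.09 to 0.26. These are descriptions of the libraries and carry no test. How many of all tested genes each library held above all PF libraries was not counted, so the counts are not shown to be particular to the 10 genes.

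MBV in pair-fed mice also called none of the 10 genes with edgeR, and 1.78% of all tested genes, 0.752% as higher and 1.03% as lower. At an unadjusted p under 0.05 stood 1 gene, Lrat, against 16.9% of all tested genes. Lrat was at 27.6, 25.1, 18.3 and 21.3 CPM in PF+MBV livers and at 15.1, 19.2, 17.3 and 9.44 CPM in PF livers. Only PF+MBV library 3 reached into the PF range, and the log2 fold change was 0.60 ± 0.19 (SE, edgeR adjusted p = 0.108). DESeq2 called it (0.59, adjusted p = 0.0479), as did limma voom with sample weights (0.62, adjusted p = 0.0124) and edgeR without PF library 2 (0.72, adjusted p = 0.0422).

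No other member passed in pair-fed mice, in the main test or without any single library. Hgf was at 12.2, 8.11, 11.0 and 7.91 CPM in PF+MBV livers against 8.80, 6.77, 8.03 and 7.14 CPM in PF livers, with a log2 fold change of 0.35. Reln was at 72.6, 69.6, 61.8 and 58.4 CPM in PF+MBV livers, overlapping PF livers, with 0.03. Acta2 was at 1.29, 4.38, 2.13 and 2.35 CPM in PF+MBV livers and enclosed the PF libraries, and its log2 fold change was 0.23, or -0.17 without PF+MBV library 2. Des was nearly constant in PF+MBV livers, at 3.64, 3.79, 3.85 and 3.67 CPM, inside the wider PF range, with 0.23. Pdgfra was at 7.70, 7.95, 6.25 and 9.22 CPM, Pdgfrb at 12.2, 11.4, 8.75 and 8.54 CPM, Cygb at 7.82, 8.49, 6.61 and 7.10 CPM and Dcn at 127, 133, 125 and 118 CPM in PF+MBV livers. Their log2 fold changes were -0.13 for Pdgfra, 0.26 for Pdgfrb, -0.20 for Cygb and 0.15 for Dcn. Lox had 9, 10, 9 and 13 counts in PF+MBV livers and a log2 fold change of 0.41. Among the lists around these genes the single call was Pnpla3, a lipid droplet hydrolase that also acts on retinyl esters, at 2.39 ± 0.53 (log2, SE, edgeR adjusted p = 0.033).

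Ethanol against pair-feeding under MBV called 4 of the 10 genes, 3 higher and 1 lower, where 35.9% of all tested genes were called, 19.2% as higher and 16.7% as lower. Hgf averaged 21.6 ± 6.29 CPM in EtOH+MBV livers and 9.79 ± 2.12 CPM in PF+MBV livers (SD, n = 4 each), with no overlap and a log2 fold change of 1.14 ± 0.20 (SE, edgeR adjusted p = 0.000555). Pdgfra averaged 14.2 ± 4.49 CPM in EtOH+MBV livers and 7.78 ± 1.22 CPM in PF+MBV livers (SD, n = 4 each). Only EtOH+MBV library 1 reached into the PF+MBV range, and the log2 fold change was 0.86 ± 0.19 (SE, edgeR adjusted p = 0.0025). Cygb averaged 11.2 ± 2.56 CPM in EtOH+MBV livers and 7.51 ± 0.822 CPM in PF+MBV livers (SD, n = 4 each), and its log2 fold change was 0.57 ± 0.20 (SE, edgeR adjusted p = 0.0305). Reln averaged 48.3 ± 5.48 CPM in EtOH+MBV livers and 65.6 ± 6.62 CPM in PF+MBV livers (SD, n = 4 each), with no overlap and a log2 fold change of -0.44 ± 0.15 (SE, edgeR adjusted p = 0.0326). Hgf was the only one of the 10 with every EtOH+MBV library above every PF+MBV library, and Reln the only one with every library below, against 19.2% and 19.9% of all tested genes.

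The Cygb and Reln calls under MBV were weak. Cygb lost its call in 9 of 27 alternatives. Among them were those without EtOH+MBV library 2 (0.49, edgeR adjusted p = 0.0904), 3 (0.57, 0.0597) or 4 (0.52, 0.0848) and without PF+MBV library 1 (0.59, 0.0539), 3 (0.53, 0.0792) or 4 (0.55, 0.0708). Reln lost its call in 7 of 27, among them those without EtOH+MBV library 1 (-0.38, edgeR adjusted p = 0.0725), 2 (-0.42, 0.0783) or 4 (-0.44, 0.069) and without PF+MBV library 1 (-0.39, 0.0901), 2 (-0.41, 0.0788) or 3 (-0.46, 0.0527). Acta2 averaged 1.11 ± 0.763 CPM in EtOH+MBV livers and 2.54 ± 1.31 CPM in PF+MBV livers (SD, n = 4 each), a log2 fold change of -1.17 ± 0.52 that did not pass (edgeR adjusted p = 0.0886). Without EtOH+MBV library 1 it was -1.71 and passed (edgeR adjusted p = 0.022). Lrat averaged 29.4 ± 2.62 CPM in EtOH+MBV livers and 23.1 ± 4.09 CPM in PF+MBV livers (SD, n = 4 each), with 0.35 ± 0.18 (log2, SE, edgeR adjusted p = 0.149). It passed in limma voom with sample weights (0.39, adjusted p = 0.034) and in edgeR on the EtOH+MBV and PF+MBV libraries alone (0.36, adjusted p = 0.0487). Log2 fold changes of Des, Dcn, Lox and Pdgfrb were 0.02, -0.08, -0.10 and -0.16.

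Under MBV the surrounding lists are to be read against 19.2% of all tested genes called higher with ethanol and 16.7% called lower. The serum response factor list had 7 of 19 genes higher and 2 lower, with a median log2 fold change of 0.55. Of 29 collagen and myofibroblast genes 3 were higher and 7 lower, with a median of -0.37. Their summed level was 3050 to 5570 CPM in EtOH+MBV livers and 2490 to 2960 CPM in PF+MBV livers, so sum and median went opposite ways. Mmp14 was higher by 0.85 ± 0.12 and Cyp26a1 by 1.95 ± 0.27 on the log2 scale (SE, edgeR adjusted p = 9.23e-05 and 9.88e-05). Other stellate cell markers were higher in 3 of 22 cases and lower in 7, with Fgfr2 at -1.74 ± 0.24 and Colec10 at -1.21 ± 0.16 (log2, SE, edgeR adjusted p = 9.68e-05 and 5.68e-05). Of 8 small leucine-rich proteoglycans 4 were lower, led by Omd at -2.38 ± 0.34 and Ecm2 at -2.06 ± 0.35 (log2, SE, edgeR adjusted p = 0.000116 and 0.000381). Sinusoidal endothelial markers were lower in 6 of 17 cases and higher in 1.

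Whether MBV changed the ethanol difference was tested as the interaction of diet and MBV, and none of the 10 genes passed in edgeR, DESeq2 or limma voom, where 4.11% of all tested genes did in edgeR, 2.02% as higher and 2.09% as lower. The difference that passed for Lrat, Des, Pdgfrb and Dcn with vehicle and not with MBV in the edgeR test is therefore not shown to differ between the treatments. Of the estimates 9 of 10 were below 0, with a median of -0.53, where 49.5% of all tested genes were below 0. Without EtOH library 1 it was 8 of 10 with a median of -0.53, without EtOH+MBV library 1, 8 of 10 with -0.45, and without both, 7 of 10 with -0.32. At an unadjusted p under 0.05 stood 4 of the 10 genes, against 23.3% of all tested genes. Pdgfrb was at -0.84 ± 0.30, Des at -0.72 ± 0.27, Lrat at -0.62 ± 0.26 and Dcn at -0.44 ± 0.19 (log2, SE, edgeR adjusted p = 0.114, 0.125, 0.164 and 0.185). Pdgfrb passed without EtOH library 4 (-0.98, edgeR adjusted p = 0.0454) and without EtOH+MBV library 4 (-1.06, 0.0474), and Des without PF library 4 (-0.95, 0.0432). Des also passed in limma voom with sample weights (-0.89, adjusted p = 0.0344). Hgf was at -0.41, or -0.22 without EtOH+MBV library 1, and Acta2 at -1.41 ± 0.72 (log2, SE, edgeR adjusted p = 0.246 for Acta2).

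In the lists, the interaction was negative and called for 5 of 29 collagen and myofibroblast genes, among them Serpinh1, a collagen chaperone, at -1.47 ± 0.32 and Sparc at -0.88 ± 0.20 (log2, SE, edgeR adjusted p = 0.022 and 0.0239). Of 19 genes of the serum response factor list 5 were called, all negative. Over all tested genes the interaction was called positive in 2.02% and negative in 2.09%. Among 22 other stellate cell markers 1 was positive and 2 were negative, and of these Ngfr, a neurotrophin receptor, was at -2.74 ± 0.62 and Nes, the intermediate filament nestin, at -1.81 ± 0.47, while among the pathway genes Tgfb3 was at -1.89 ± 0.38 and Cyp26a1 at -1.94 ± 0.38 (log2, SE, edgeR adjusted p = 0.025, 0.0407, 0.0188 and 0.0187). Over all lists, 3 called interactions were positive, with Serpina5 at 5.10 ± 1.02, Cd163, a macrophage scavenger receptor, at 1.13 ± 0.27 and Steap4, the stellate cell marker called positive, at 1.48 ± 0.41 (log2, SE, edgeR adjusted p = 0.0188, 0.0298 and 0.0495).

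For the 5 members whose group means ranged over about 1 log2 unit or more, the genes with the most similar pattern over the 16 libraries were found by the root mean square difference of centred log2 CPM. Pdgfra had the closest, Tnfrsf1a at 0.16 and Bmp2k at 0.17. Hgf was nearest to Dusp16 at 0.21 and Rbpms at 0.23, and Lrat to Ppp1r21 at 0.22 and Slc20a2 at 0.23. Acta2 was nearest to Pafah1b3 at 0.47 and Tmsb10 at 0.48, and Lox to Jdp2 at 0.48 and 2010003K11Rik at 0.53. Acta2 rested on 6 to 87 counts per library and Lox on 1 to 42, fewer than Hgf, Lrat and Pdgfra. The part of counting noise in these larger distances was not tested. The libraries of a group share their diet and treatment, and these values are descriptions with no test.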

How the data were processed

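Poly(A) RNA from mouse livers was sequenced on an Illumina instrument, per the labels' protocols. The authors deposited 1 table per library of raw read counts per gene, in the column layout of STAR, and the submitters' processing notes name Trimmomatic, STAR and the build mm10, with versions not given in the sources used here. Counts without strand were used, since the stranded columns split near evenly (50.58 to 51.79% on the first strand). Rows that name no gene were left out of library sizes: unmapped reads were 11.57 to 19.89% of a library, multimapping 4.57 to 7.58%, reads in no gene 9.40 to 10.87% and ambiguous reads 1.35 to 1.69%.

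The 16 libraries were fitted together with edgeR 4.0.16 (R 4.3.3): filterByExpr at a minimum count of 10, TMM factors of 0.863 to 1.27, 1 mean per group, the quasi-likelihood test over 12901 genes with Benjamini-Hochberg adjustment, and 0.05 as threshold. SE is the log2 fold change divided by the root of F. Alternatives used DESeq2 1.42.0 and limma 3.58.1. The edgeR test was also run on simulated counts with known changes, and the other steps were not. No pair of libraries of a group agreed within sampling noise (chi-square per degree of freedom 8.54 to 163). Symbols were matched to GENCODE vM21 for positions, exon lengths and overlaps. The 10 genes, the 20 lists and their markers were chosen with earlier results of these data known. Beside the 10 genes, those named from a list are up to 4 with the smallest p in EtOH against PF and up to 2 in each other comparison. A gene that this rule names among the collagen and myofibroblast genes is not reported here.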

Additional observations from a re-analysis of the deposited data

Results flagged for a closer look

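Within the 10 genes and 4 groups, 40 sets of 4 libraries were searched for a library far from the other 3, by Dixon's gap ratio at its 95% level. Chance flags about 1 in 20 groups, or 2.0 of 40, and 2 were found. Des stood at 3.31 CPM in EtOH+MBV library 3, below 3.90 to 3.95 CPM in the other EtOH+MBV libraries. Pdgfrb stood at 10.4 CPM in PF library 4, above 7.73 to 8.13 CPM in the other PF libraries.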

How the results depend on the processing

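Log2 fold changes of the stellate cell genes and the total numbers of called genes were recomputed under 27 alternatives (26 for the interaction). The calls and medians of the gene lists around them were not recomputed. How those depend on the processing was therefore not tested. In EtOH against PF, 238 of 268 single-gene values kept direction and side of the threshold, in EtOH+MBV against EtOH 261 of 269, in PF+MBV against PF 261 of 268, in EtOH+MBV against PF+MBV 237 of 268 and in the interaction 246 of 259. The calls of Hgf, Lrat, Pdgfra, Des and Cygb in EtOH against PF, and of Hgf and Pdgfra in EtOH+MBV against PF+MBV, held in all 27. Lox was filtered out under at least 1 CPM in 4 libraries. With the 2 groups fitted alone it was also filtered out in EtOH against PF, PF+MBV against PF and EtOH+MBV against PF+MBV. At this depth its 1 to 42 reads limit it most. The cause of the changes below was not tested.

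Of the 10 genes, 1 was called in PF+MBV against PF by DESeq2 and by limma voom with sample weights, and 1 in the interaction by sample weights. Leaving out a library in turn gave 6 to 9 called genes in EtOH against PF, 0 to 1 in EtOH+MBV against EtOH, 0 to 1 in PF+MBV against PF, 2 to 4 in EtOH+MBV against PF+MBV and 0 to 1 in the interaction.

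Over all tested genes, 347 calls in EtOH+MBV against EtOH became 196 with library size only, 905 with DESeq2, 121 with sample weights, 0 with the 2 groups fitted alone (an unadjusted count was not made there), 205 with a replicate block and 180 with EtOH 1 and EtOH+MBV 1 both left out, and 8 to 1169 on leaving out 1 library. For PF+MBV against PF 230 became 665 with DESeq2, 2429 with sample weights, 1119 with the 2 groups alone, 1022 with both left out and 45 to 689 without 1 library. For EtOH+MBV against PF+MBV 4633 became 7078 with sample weights. For the interaction 530 became 349 with library size only, 1113 with DESeq2, 1359 with sample weights, 887 with both left out and 168 to 1088 without 1 library.

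No reversed log2 fold change was past the threshold. In EtOH against PF Acta2 was -0.25 with sample weights and -0.12 with both libraries left out. In EtOH+MBV against EtOH Hgf was 0.03 and 0.11 under the same settings and Lrat 0.02 with both left out. In EtOH+MBV against PF+MBV Des was -0.06 with upper quartile scaling, -0.13 with library size only and -0.01 with sample weights, and with both left out Dcn was 0.04 and Lox 0.14. In the interaction Reln was -0.08 with library size only, Pdgfra 0.07 with sample weights and 0.12 with both left out, and Cygb 0.02 and 0.16. Leaving out 1 library gave Acta2 -0.13 to 0.54 in EtOH against PF and -0.17 to 0.44 in PF+MBV against PF, and Reln -0.02 to 0.08 there. It gave Hgf -0.18 to 0.13 and Lrat -0.11 to 0.09 in EtOH+MBV against EtOH. In EtOH+MBV against PF+MBV the ranges were -0.16 to 0.03 for Dcn, -0.01 to 0.08 for Des and -0.60 to 0.27 for Lox, and in the interaction -0.30 to 0.01 for Cygb, -0.24 to 0.13 for Pdgfra and -0.01 to 0.23 for Reln.

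Same-numbered libraries of different groups correlated at -0.12 to 0.17 over 24 pairs, with 3 over 0.1. Of 16 libraries 2 correlated best with their own number, so no pairing by number was visible. The labels do not state whether the numbers pair libraries, and low correlations cannot settle it. With the replicate block Dcn missed the threshold in EtOH against PF (0.36, edgeR adjusted p = 0.0718), and no other call on the 10 genes changed.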
